A study of Mus musculus with 19 samples.

Results

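Peg3, Usp29, Snrpn, Ndn, Mest, Peg10, Sgce, Nnat, Plagl1 and Impact are paternally expressed imprinted genes of the mouse that lie outside the Igf2 to H19 and Dlk1 to Meg3 regions. They were chosen by name, as 10 of 54119 annotated genes, and the deposited transcript values were summed per gene in each of 19 libraries. All 10 were among the 14972 genes tested, which had a deposited TPM (transcript level per length and library total) of at least 1 in at least 3 libraries. Nnat reached that level in 0 of 10 stem cell libraries and in 9 of 9 libraries of the later state, and Usp29 in 1 and 9, so both passed the filter through the state in which they were high.

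The cells were mouse embryonic stem cells (mESC), cultured with LIF and inhibitors of GSK3 and MEK1/2, and epiblast-like cells (EpiLC), titled epiblast in the labels and derived over 5 days by FGF5 and Activin A after LIF was withdrawn. The XX groups were wildtype cells of the line LF2 (3 mESC and 3 EpiLC libraries). The XY groups were wildtype cells of the line E14 (3 and 3 libraries), so the sex chromosomes and the line cannot be told apart. The Tet3-/- groups were LF2 cells without functional alleles of Tet3 according to their label (mutants #1 to #4 as mESC, and #1, #3 and #4 as EpiLC), and the labels give neither the deleted part nor whether a mutant number stands for 1 clone. The study asked whether TET3, an enzyme that oxidises 5-methylcytosine, is required when mESC become EpiLC.

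In genomic imprinting, a DNA methylation mark set in 1 of the parental germlines lets a gene be transcribed from only 1 parental chromosome. For the genes described here the mark is set in the egg, and the unmethylated paternal copy is the active one. After fertilisation such marks are kept through the genome-wide loss of methylation, among others by the zinc finger protein ZFP57, and mouse stem cells are known for losing marks in culture, female lines more often than male lines. A library of total RNA sums both parental copies, so the values below are total levels and do not show which copy was transcribed. In such bulk samples, fewer cells that transcribe a gene and less RNA per cell cannot be told apart.

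Promoter windows are shown for the genes on which the results turn, from 250 bases before to 50 after a RefSeq start on GRCm38.p6, 5′ to 3′ on the gene's strand. Windows of 7 of the 10 genes were taken from the RefSeq table. Capitals mark matches on either strand to TGCCGC (reverse complement GCGGCA), the hexamer bound by ZFP57 when methylated, or to GCATGCGC (reverse complement GCGCATGC), the core of the NRF1 motif. Peg3 is shown because Usp29 starts beside it on the other strand, Mest because it has annotated starts at a pair of promoters, and Nnat and Plagl1 because they moved furthest in opposite directions between the states of XX cells.
Peg3 (chr7:6730370-6730669, minus strand): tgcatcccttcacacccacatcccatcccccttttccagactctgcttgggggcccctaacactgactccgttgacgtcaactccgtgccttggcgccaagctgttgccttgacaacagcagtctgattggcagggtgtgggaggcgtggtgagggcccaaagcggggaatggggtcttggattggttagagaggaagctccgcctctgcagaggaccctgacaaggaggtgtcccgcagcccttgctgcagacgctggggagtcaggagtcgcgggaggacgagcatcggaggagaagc
Mest, main start (chr6:30737800-30738099, plus strand): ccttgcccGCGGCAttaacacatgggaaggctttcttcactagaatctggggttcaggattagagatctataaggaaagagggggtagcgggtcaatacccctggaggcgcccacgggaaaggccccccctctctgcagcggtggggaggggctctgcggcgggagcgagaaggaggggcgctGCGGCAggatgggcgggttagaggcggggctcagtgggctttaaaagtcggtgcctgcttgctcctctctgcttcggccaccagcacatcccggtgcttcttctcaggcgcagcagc
Mest, upstream start (chr6:30733256-30733555, plus strand): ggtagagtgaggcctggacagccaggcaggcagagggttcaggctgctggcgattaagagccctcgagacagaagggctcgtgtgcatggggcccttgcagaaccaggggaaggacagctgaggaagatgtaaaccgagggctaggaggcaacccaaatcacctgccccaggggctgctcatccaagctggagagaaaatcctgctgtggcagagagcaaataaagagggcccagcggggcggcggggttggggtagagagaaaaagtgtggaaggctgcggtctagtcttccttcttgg
Nnat (chr2:157559828-157560127, plus strand): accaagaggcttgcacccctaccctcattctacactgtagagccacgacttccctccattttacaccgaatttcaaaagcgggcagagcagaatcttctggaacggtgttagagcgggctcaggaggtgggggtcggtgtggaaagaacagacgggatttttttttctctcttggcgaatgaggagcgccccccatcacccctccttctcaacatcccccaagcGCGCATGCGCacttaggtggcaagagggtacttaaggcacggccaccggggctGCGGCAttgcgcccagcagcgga
Plagl1 (chr10:13090582-13090881, plus strand): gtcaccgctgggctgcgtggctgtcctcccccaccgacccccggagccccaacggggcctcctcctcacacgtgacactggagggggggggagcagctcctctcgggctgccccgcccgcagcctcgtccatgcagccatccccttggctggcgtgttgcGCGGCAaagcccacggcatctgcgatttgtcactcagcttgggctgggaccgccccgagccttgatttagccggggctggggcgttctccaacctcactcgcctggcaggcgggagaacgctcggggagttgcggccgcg

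The main Mest window held 2 matches to the ZFP57 hexamer and 17 CpG dinucleotides, and the upstream Mest window held 0 matches and 8 CpG. The Nnat window held 1 hexamer and 2 NRF1 cores, which overlap each other in a palindrome, with 17 CpG. The Plagl1 window held 1 hexamer and 26 CpG, and the Peg3 window held 0 matches to either motif and 13 CpG. Over all 32851 windows of the same length, 11.6% held the hexamer, 1.53% held it at least 2 times, 2.71% held the NRF1 core, and the median was 7 CpG. A match is a run of letters and not a measured binding site.

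Sequencing depth is unknown because TPM does not hold it, and precision was read from the spread between libraries. Rn7s1, an abundant non-coding RNA, held 23.5% to 43.7% of TPM per library, and the deposited TPM was therefore scaled by median-of-ratios factors (0.595 to 1.7). All levels below are scaled TPM, and fold changes are on the log2(scaled TPM + 1) scale, which understates changes of low genes. Without scaling, the median over the tested genes moved to 0.14 in the XX transition, 0.54 in XY and -0.13 in Tet3-/- (log2 fold change), and to -0.59 between XX and XY EpiLC. It moved to 0.19 for Tet3-/- against XX in mESC, to -0.19 for XX against XY in mESC, to -0.28 for the Tet3-/- minus the XX transition, and to -0.40 for the XX minus the XY transition.

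The share of called genes that were higher moved with the scaling, from 48.6% scaled to 61.2% unscaled in the XX transition and from 51.3% to 81.5% in the XY transition. Between Tet3-/- and XX it moved from 55.7% to 82.2% (mESC) and from 45.7% to 11.2% (EpiLC), and from 56.5% to 45.4% and from 50.9% to 11.1% for XX against XY in mESC and EpiLC. For the differences between transitions it moved from 37.4% to 0% (Tet3-/- minus XX) and from 46% to 22.5% (XX minus XY). Tet3 itself had mean levels of 0.933 in XX and 0.668 in Tet3-/- mESC and of 1.74 and 1.15 in EpiLC, and was called in neither state (limma adjusted p 0.44 and 0.115).

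Of 8 markers of naive pluripotency, 8 fell in each transition, and their summed level was 459 to 633 in mESC and 36.2 to 93.7 in EpiLC. Of 6 formative markers, which define EpiLC, 4 rose and 1 fell in XX, 5 rose in XY and 4 rose in Tet3-/-. The one that fell was Otx2, an early activator of the formative state (log2 fold change -0.92, limma adjusted p 0.000212, mean levels of 23.6 and 11.7). The summed level of the 6 was 27.6 to 33.3 in XX mESC, 18.4 to 21.4 in XY mESC and 24.3 to 30 in Tet3-/- mESC. In EpiLC it was 46.4 to 48.4 in XX, 206 to 213 in XY and 61.4 to 117 in Tet3-/-. All 6 were lower in XX than in XY EpiLC (limma), and the part of this in the results on XX against XY was not tested. Fibroblast markers, listed because several of the 10 genes are active in mesenchyme, had a summed level of 0.719 to 2.46 in mESC and 4.36 to 24.6 in EpiLC. In EpiLC the defining collagen genes Col1a1, Col1a2 and Col3a1 stayed at 1.16 or less. Of the 8 markers 2 were tested, and both rose in XX. Acta2, a smooth muscle actin gene, rose in XX (log2 fold change 2.51, to a mean of 4.76) and Tet3-/- (2.87, with a library at 21), and Thy1, a surface glycoprotein gene, rose in XX (1.32) and XY (1.81). The part of these 2 genes in the results was not tested.

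Most of these genes had higher levels in EpiLC. In XX cells 8 rose and 1 fell, in XY cells 6 rose and 2 fell, and in Tet3-/- cells 8 rose and 1 fell (limma with Benjamini-Hochberg adjustment over all tested genes, called at an adjusted p under 0.05). Over all genes tested, 50.4% were called in the XX transition, 51.4% in the XY transition and 52.4% in the Tet3-/- transition, so a call by itself is frequent. The share called higher was 24.5% (XX), 26.4% (XY) and 25.2% (Tet3-/-) of all genes. The 10 genes had median log2 fold changes of 1.37 (XX), 1.12 (XY) and 1.69 (Tet3-/-), beside -0.02, 0.00 and 0.00 for all genes. These counts and medians include Nnat and Usp29, which passed the filter through EpiLC, so it favoured a rise of both. Peg3, Usp29, Snrpn, Peg10, Sgce and Nnat rose in all 3 transitions, and Plagl1 fell in all 3. Mest and Impact rose in XX and Tet3-/- but not in XY, and Ndn was called in none.

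**Figure D1:**
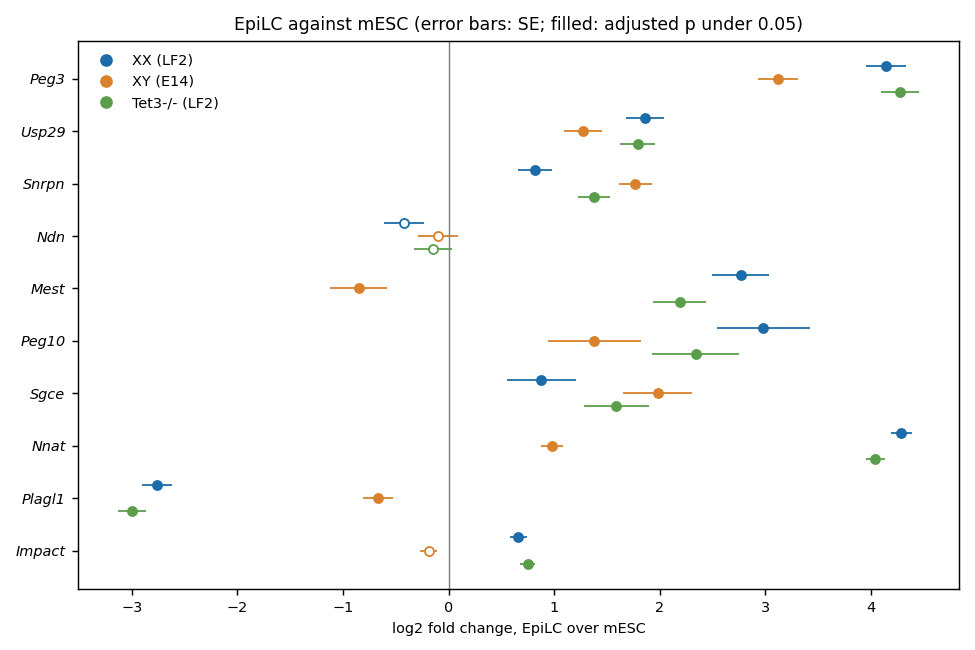
Log2 fold change of EpiLC over mESC (horizontal axis) for each gene in XX, XY and Tet3-/- cells, with bars of 1 SE and filled points for an adjusted p under 0.05. The XX and Tet3-/- points lie on the same side of 0 for all 10 genes, and the XY point of Mest (-0.85) lies on the other side from those of XX (2.77) and Tet3-/- (2.19).

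Peg3 encodes a zinc finger protein that acts in growth and maternal behaviour, and Usp29 encodes a ubiquitin protease. On chromosome 7 of GRCm38, Peg3 (ENSMUSG00000002265.16, 6703892 to 6730431, minus strand) and Usp29 (ENSMUSG00000051527.11, 6730578 to 6967219, plus strand) start 147 bases apart and point away from each other, and their RefSeq windows overlap, so the Peg3 sequence above holds most of the Usp29 window, which has 17 CpG. Peg3 was at 2.31, 2.58 and 2.79 in the 3 XX mESC libraries, at 1.85, 2.57 and 2.8 in XY mESC, and at 3.11, 3.12, 3.76 and 3.83 in Tet3-/- mESC. It reached 54.9, 64.4 and 66.1 in XX EpiLC, 24.6, 30.4 and 31 in XY EpiLC, and 64.4, 76.2 and 127 in Tet3-/- EpiLC. Every EpiLC library lay above every mESC library, and XY EpiLC lay below the other EpiLC groups without overlap.

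The rise of Peg3 was 24.1-fold between the means in XX (log2 fold change 4.14, SE 0.19, limma adjusted p 4.68e-11), 11.9-fold in XY (3.12, SE 0.19) and 25.8-fold in Tet3-/- (4.28, SE 0.18). In the XX transition it was larger in size than the change of 99.6% of all tested genes. Usp29 ranged from 0.188 to 0.286 in XX mESC, 0.112 to 0.33 in XY mESC and 0.342 to 1.1 in Tet3-/- mESC, against 3.3 to 3.72, 1.67 to 2 and 3.52 to 6.97 in the EpiLC groups. It rose with log2 fold changes of 1.86, 1.27 and 1.79 in XX, XY and Tet3-/-, and of 3.40, 2.84 and 2.67 when 0.1 in place of 1 was added before the logarithm. The order of the 6 groups was the same for both genes, Tet3-/-, XX and XY within EpiLC and then Tet3-/-, XX and XY within mESC. Tet3-/- and XX overlapped in EpiLC, and XX and XY overlapped in mESC.

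The ratio of Peg3 to Usp29, both per length, was steadier in EpiLC than in mESC. It ranged from 16.6 to 18.6 in XX EpiLC, 14.7 to 15.7 in XY EpiLC and 15.7 to 18.3 in Tet3-/- EpiLC. In mESC, where both genes were low, it ranged from 8.66 to 13.7 in XX, 8.48 to 23 in XY and 3.4 to 9.12 in Tet3-/-.

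**Figure D2:**
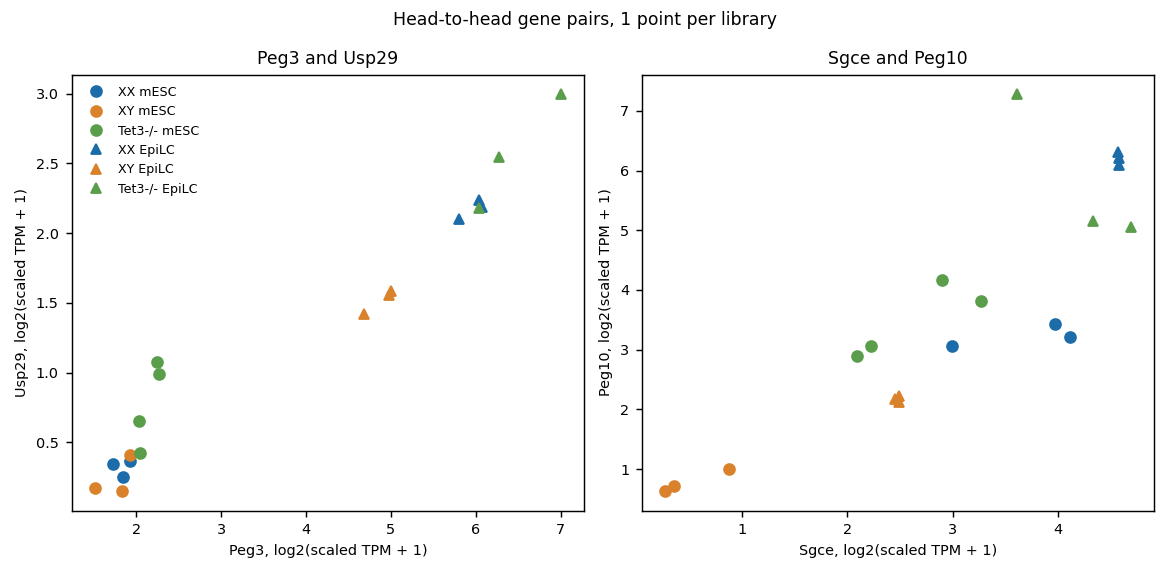
Levels of the head-to-head pairs, 1 point per library, as log2(scaled TPM + 1): Usp29 against Peg3 on the left and Peg10 against Sgce on the right. The EpiLC libraries lie along a line for Peg3 and Usp29, while mutant #3 EpiLC stands above the others for Peg10 (154) with a lower Sgce (11.2).

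Transcripts that start beside Peg3 carried the Usp29 rise. They held 3.18 ± 0.265 (SD, n = 3) in XX EpiLC against 0.0838 ± 0.00319 (SD, n = 3) in XX mESC, and the transcripts that start farther downstream held 0.346 ± 0.111 against 0.163 ± 0.0505 (SD, n = 3 each). The share of the first class was 90.1%, 88.1% and 92.1% in XX, XY and Tet3-/- EpiLC. In mESC it was 35% in XX and 26.3% in Tet3-/-, and in XY it ranged from 36.7% to 94.1% between libraries. Most of the EpiLC level came from Usp29-205, Usp29-206 and Usp29-208, which the annotation gives as processed transcripts or a retained intron, and the long coding transcript Usp29-204 was at 0.0595 ± 0.0325 (SD, n = 3) in XX EpiLC. Division of reads among the transcripts of a gene is an estimate made before deposition and its error cannot be seen in TPM. For Peg3, the coding transcript Peg3-201 held 74.8% of the level in XX EpiLC and 80.5% in XX mESC.

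**Figure D3:**
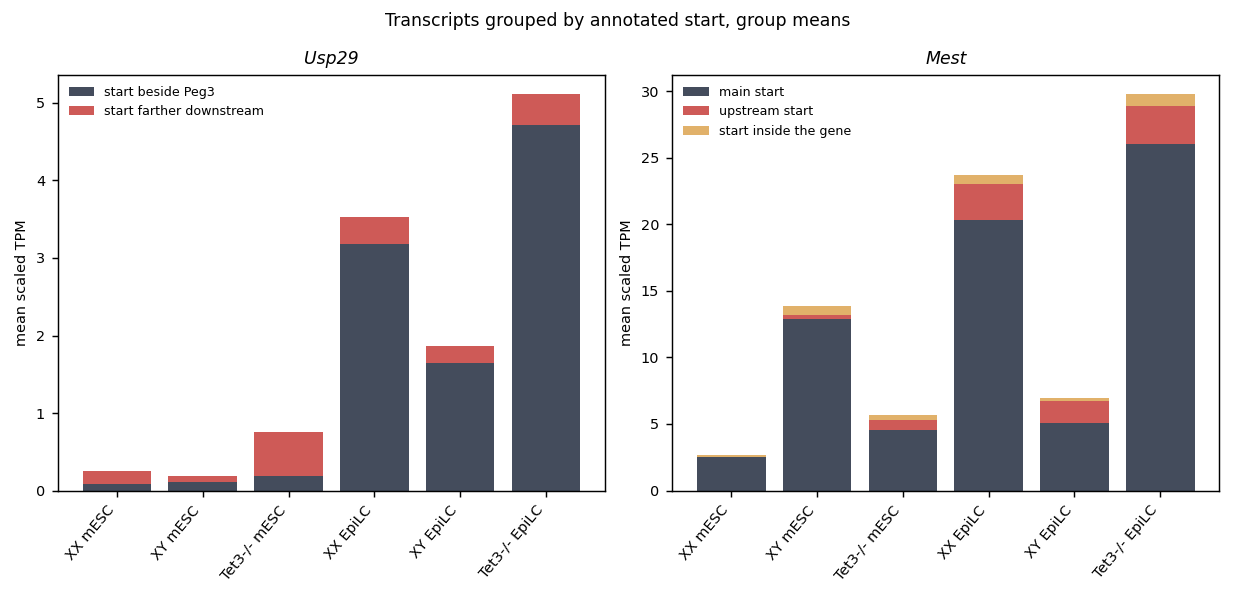
Mean scaled TPM per group of Usp29 (left) and Mest (right), stacked by the annotated start of the transcripts. Starts beside Peg3 hold 3.18 of Usp29 in XX EpiLC and 0.0838 in XX mESC, and the main start holds most of Mest in each group (2.51 in XX mESC and 20.3 in XX EpiLC).

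Zfp264, another paternally expressed gene of the Peg3 domain, went the other way and fell in all 3 transitions (log2 fold changes of -0.91, -1.37 and -1.22 in XX, XY and Tet3-/-). Aurkc, a meiotic kinase gene beside the domain, fell by 2.64, 2.07 and 2.72 on the log2 scale. Zfp773 also fell in all 3 (-1.56, -0.61 and -1.04), and Clcn4, a chloride transporter gene, rose in XY (0.80, limma adjusted p 0.000338) and was not called in XX (0.22) or Tet3-/- (0.26).

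Snrpn encodes a protein of the splicing machinery and Ndn encodes necdin, a protein of postmitotic neurons, and both belong to the domain on chromosome 7 that corresponds to the human Prader-Willi region. Snrpn (ENSMUSG00000102252.5, 59982495 to 60140219, minus strand) was at 21.6, 23.6 and 32.6 in XX mESC, 15.3, 15.6 and 17.1 in XY mESC and 21.2, 24.3, 25.8 and 33 in Tet3-/- mESC. In EpiLC it was at 45.4, 45.9 and 46.2 in XX, 55.5, 56.6 and 58.4 in XY and 61.9, 62.2 and 84.2 in Tet3-/-. No EpiLC library overlapped a mESC library, and XY lay below XX in mESC and above it in EpiLC, the latter a difference that was not called. Snrpn rose 1.77-fold in XX (log2 fold change 0.82, SE 0.16, limma adjusted p 0.000438), 3.55-fold in XY (1.77, SE 0.16) and 2.66-fold in Tet3-/- (1.38, SE 0.15). One transcript, Snrpn-201, held 99.4% or more of the level in each group.

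Ndn (ENSMUSG00000033585.5, 62346569 to 62350262, plus strand) stayed low in all groups, from 0.713 in 1 XY EpiLC library to 4.15 in mutant #3 EpiLC. It had log2 fold changes of -0.42 (XX, limma adjusted p 0.0772), -0.10 (XY) and -0.15 (Tet3-/-), none of them called. Without mutant #3 the Tet3-/- value was -0.45 (limma adjusted p 0.00528). In the same domain Snurf, whose reading frame shares transcripts with Snrpn so that reads may be split between them, rose by 1.09, 2.34 and 1.24, while the paternally expressed genes Mkrn3 (-0.69, -0.49 and -0.57) and Peg12 (-1.18, -0.96 and -1.34) fell in all 3 transitions. Ube3a, the ubiquitin ligase gene of the domain that is maternally expressed in neurons, rose by 0.43, 0.80 and 0.37. Magel2, another paternally expressed gene of the domain, did not pass the filter and was not tested. Its means in mESC and EpiLC were 0.0229 and 0.224 in XX, 0.0302 and 0.527 in XY, and 0.0427 and 1.06 in Tet3-/- (with a library at 2.66). Of the tested genes of the domain named here, some rose, some fell and 1, Ndn, had no call.

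Mest encodes a hydrolase-like protein of embryonic mesoderm. Mest (ENSMUSG00000051855.15, chromosome 6, 30723547 to 30748465, plus strand) was at 2.3, 2.35 and 3.35 in XX mESC, 3.27, 5.91, 6.4 and 7.18 in Tet3-/- mESC, and 8.63, 15.8 and 17.1 in XY mESC. In EpiLC it was at 23.2, 24 and 24.1 in XX, 21.2, 26.2 and 41.8 in Tet3-/-, and 6.64, 6.81 and 7.37 in XY. The order of the lines was thus turned around between the states, with XY highest in mESC and lowest in EpiLC, without overlap with XX in either state. Neural markers were high in the XY mESC libraries in which Mest was high. Their summed level was 22.7, 8.36 and 18.2 in XY mESC libraries 1 to 3, where Mest was at 17.1, 8.63 and 15.8, against 2.84 to 10.4 in XX mESC, with library 2 highest for both. In Tet3-/- mESC it was 3.31, 9.01, 8.83 and 4.32 in mutants #1 to #4, where Mest was at 6.4, 5.91, 3.27 and 7.18 and did not follow it, and it was 5.65 to 9.82 in EpiLC. The 3 of 7 neural markers tested, Tubb3 (log2 fold change -1.65), Map2 (-0.47) and Stmn3 (-1.28), were lower in XX than in XY mESC, while the neural progenitor genes Sox1 and Pax6 had means of 0.427 or less in mESC. Their part in the Mest values was not tested.

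Mest rose 8.91-fold in XX (log2 fold change 2.77, SE 0.27, limma adjusted p 2.77e-07) and 5.23-fold in Tet3-/- (2.19, SE 0.25), and fell in XY (-0.85, SE 0.27, limma adjusted p 0.0134). The fall in XY lost its call without XY mESC library 1 (-0.68, limma adjusted p 0.0691), without library 3 (-0.73, limma adjusted p 0.0537), and on unscaled TPM (-0.25, limma adjusted p 0.638). The main start, which lies in the window with 2 ZFP57 hexamers, held 94% of Mest in XX and in XY mESC, 80.3% in Tet3-/- mESC (65.3% to 94.3% between libraries), and 85.5%, 73% and 87.4% in XX, XY and Tet3-/- EpiLC. The upstream class pools 5 annotated transcripts, among them Mest-210, which starts within the upstream window printed above. The class was listed at 0 in all 3 XX mESC libraries and varied widely between libraries of the other groups. It ranged from 0 to 0.835 in XY mESC, 0 to 1.84 in Tet3-/- mESC and 0 to 4.16 in XX EpiLC. In XY EpiLC it ranged from 0.148 to 2.42, and in Tet3-/- EpiLC from 0.0623 to 6.19. Of the neighbours, Copg2, a vesicle coat gene, was not called in any transition, and Cep41 fell by 0.60, 0.78 and 0.68 on the log2 scale in XX, XY and Tet3-/-.

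Peg10 derives from a retrotransposon and is needed for the placenta, and Sgce encodes epsilon-sarcoglycan, a membrane protein. On chromosome 6, Peg10 (ENSMUSG00000092035.8, 4747306 to 4760517, plus strand) and Sgce (ENSMUSG00000004631.15, 4674350 to 4747207, minus strand) start 99 bases apart. Peg10 was at 7.35, 8.22 and 9.73 in XX mESC, 0.554, 0.639 and 1.01 in XY mESC, and 6.45, 7.31, 13.1 and 17 in Tet3-/- mESC. It reached 67.5, 72.9 and 78.6 in XX EpiLC, 3.35, 3.5 and 3.64 in XY EpiLC, and 32, 34.4 and 154 in Tet3-/- EpiLC. Each XY library lay below each LF2 library of the same state, and XY EpiLC lay below XX mESC.

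Sgce was at 6.93, 14.7 and 16.2 in XX mESC, 0.207, 0.278 and 0.835 in XY mESC, and 3.26, 3.67, 6.43 and 8.61 in Tet3-/- mESC. It was at 22.7, 22.8 and 22.9 in XX EpiLC, 4.48, 4.6 and 4.63 in XY EpiLC, and 11.2, 19.2 and 24.8 in Tet3-/- EpiLC. The low XX mESC value came from library 2, which also stood apart across all genes (root mean square distance of 0.663 to 0.671 to the other XX mESC libraries, which lay 0.327 apart). Endoderm markers moved with Sgce among mESC libraries. Their summed level was 9.13, 1.46 and 10.4 in XX mESC libraries 1 to 3, where Sgce was at 16.2, 6.93 and 14.7. In Tet3-/- mESC it was 4.61, 0.99, 1.11 and 4.31 in mutants #1 to #4, where Sgce was at 8.61, 3.67, 3.26 and 6.43, and in XY mESC it was 0.575 to 0.907. Peg10 went with these sums too, at 8.22, 7.35 and 9.73 in the same XX mESC libraries and at 13.1, 7.31, 6.45 and 17 in mutants #1 to #4. The 2 of 6 endoderm markers tested, Gata6 (log2 fold change 1.57) and Dab2 (1.73), were higher in XX than in XY mESC. Gata4, Sox17 and Sox7 had means of 0.349 or less in mESC. The part of these markers in the Sgce and Peg10 values was not tested. In EpiLC, where Sgce was higher, the endoderm sum was 3.93 to 4.44 in XX, 2.7 to 3.29 in XY and 4.48 to 8.07 in Tet3-/-. Peg10 rose 8.66-fold in XX (log2 fold change 2.98, SE 0.44, limma adjusted p 2.94e-05), 4.76-fold in XY (1.38, SE 0.44) and 6.69-fold in Tet3-/- (2.34, SE 0.41), the last 3.03-fold without mutant #3 EpiLC. The XY call of Peg10 was lost with the replicate number as a block (1.38, limma adjusted p 0.0527). Sgce rose 1.81-fold in XX (0.88, SE 0.33, limma adjusted p 0.0342), 10.4-fold in XY (1.98, SE 0.33; 18.8-fold without XY mESC library 2) and 3.35-fold in Tet3-/- (1.59, SE 0.31).

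The XX call of Sgce was lost without XX mESC library 2 (log2 fold change 0.53, limma adjusted p 0.182) and without any of the XX EpiLC libraries (0.88 to 0.89, limma adjusted p 0.0722, 0.0723 and 0.0726). The ratio of Peg10 to Sgce, both per length, differed between groups more than that of Peg3 to Usp29. It was 0.506 to 1.06 in XX mESC, 1.21 to 2.68 in XY mESC and 1.52 to 2.65 in Tet3-/- mESC, and 2.94 to 3.47 in XX EpiLC and 0.729 to 0.787 in XY EpiLC. In Tet3-/- EpiLC it was 1.29 and 1.8 in mutants #1 and #4 and 13.7 in mutant #3. Among genes beside this pair, Calcr, a calcitonin receptor gene that is maternally expressed in brain, rose in all 3 transitions (0.83, 2.01 and 0.93 in XX, XY and Tet3-/-), Ppp1r9a rose in XY (2.32) and was not called in XX (0.48) or Tet3-/- (0.33), and Pon3 fell in all 3 (-1.06 in XX and -1.11 in Tet3-/-).

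Nnat encodes neuronatin, a small membrane protein of the endoplasmic reticulum in neural and endocrine cells. Nnat (ENSMUSG00000067786.16, chromosome 2, 157560078 to 157562522, plus strand) was at 0.0326 to 0.0533 in XX mESC, 0 to 0.202 in XY mESC and 0.0461 to 0.0837 in Tet3-/- mESC. It reached 19.2, 19.6 and 19.6 in XX EpiLC and 14.5, 17 and 18.4 in Tet3-/- EpiLC, but 0.996, 1.05 and 1.26 in XY EpiLC. Every EpiLC library lay above every mESC library, and in EpiLC the LF2 groups lay far above XY. Its log2 fold changes were 4.29 (SE 0.10, limma adjusted p 1.58e-14) in XX, 0.98 (SE 0.10) in XY and 4.04 (SE 0.09) in Tet3-/-.

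The coding transcript Nnat-202 held 81.2% to 87.7% of Nnat in the EpiLC groups, and its start lies within the window printed above. Nnat lies inside an intron of Blcap on the other strand. Blcap rose too (1.23, 0.69 and 0.87 in XX, XY and Tet3-/-), from mean levels of 7.55 to 19 in XX and of 11.2 to 18.6 in XY. Blcap thus reached nearly equal levels in XX and XY EpiLC, where Nnat differed 17.6-fold. Whether strand was used in quantification is not given in the sources used here.

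Plagl1 encodes a zinc finger transcription factor that restrains the cell cycle. Plagl1 (ENSMUSG00000019817.18, chromosome 10, 13060504 to 13131694, plus strand) was the gene of the 10 that fell in all 3 transitions. It was at 22.2, 25.7 and 26.2 in XX mESC and 18.7, 22.6, 23.7 and 29 in Tet3-/- mESC, but 0.747, 0.784 and 0.941 in XY mESC. In EpiLC it was at 2.49, 2.77 and 3.08 in XX, 1.92, 2.09 and 2.1 in Tet3-/-, and 0.0267, 0.0921 and 0.348 in XY. The XX and Tet3-/- mESC groups overlapped, and XY mESC lay below the EpiLC of both other genotypes.

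The fall of Plagl1 was 8.89-fold in XX (log2 fold change -2.76, SE 0.14, limma adjusted p 1.12e-10), 11.5-fold in Tet3-/- (-3.00, SE 0.13) and 5.3-fold in XY (-0.67, SE 0.14), the last 13.9-fold without XY EpiLC library 1. The XY call was lost on unscaled TPM (-0.60, limma adjusted p 0.0788). The coding transcript Plagl1-202, which starts within the window printed above, held 37.4% of the gene in XX mESC and 35.2% in XX EpiLC. Its neighbour Phactr2 was not called in XX or Tet3-/- and fell in XY (-0.87), and Ltv1 fell in XX (-0.65) and Tet3-/- (-0.48).

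Impact, which encodes a regulator of the amino acid starvation response, had the smallest range of group means among the 10 genes (0.84 log2 units). Impact (ENSMUSG00000024423.6, chromosome 18, 12955852 to 12992950, plus strand) was at 52, 52.2 and 53.9 in XX mESC, 49.4, 57 and 58 in XY mESC, and 44.9, 45.5, 46.2 and 49.3 in Tet3-/- mESC. It was at 82.4, 82.7 and 86.5 in XX EpiLC, 77.3, 79.4 and 79.8 in Tet3-/- EpiLC, and 46.3, 48.3 and 48.8 in XY EpiLC. The LF2 groups were higher in EpiLC, and XY was slightly lower there, again without overlap of libraries.

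Impact rose 1.59-fold in XX (log2 fold change 0.66, SE 0.08, limma adjusted p 3.31e-06) and 1.7-fold in Tet3-/- (0.75, SE 0.07). In XY its log2 fold change was -0.19 (SE 0.08, limma adjusted p 0.0546), and the sign turned on unscaled TPM (0.48, limma adjusted p 0.185). The Tet3-/- call was lost on unscaled TPM (0.58, limma adjusted p 0.118), and the XX call was not (0.87, limma adjusted p 0.0306).

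None of the 10 genes was called between Tet3-/- and XX in mESC by limma, where 3.18% of all genes were called and 2238 of all genes had an unadjusted p under 0.05. The highest and lowest values were Mest (log2 fold change 0.84, SE 0.25, limma adjusted p 0.0834) and Sgce (-1.07, SE 0.31, limma adjusted p 0.0735). Mest passed the threshold without XX mESC library 2 (0.97) or without mutant #3 (1.04), and Sgce passed it without XX mESC library 2 (-1.42) or without mutant #1 (-1.29). Peg3 (1.35-fold), Usp29 (3.04-fold) and Ndn (1.61-fold) had higher means in the mutants and Impact a lower one (1.13-fold). Libraries did not overlap in these 4, but their adjusted p-values were 0.174 to 0.442 (limma). The Usp29 means were low, 0.247 in XX and 0.752 in Tet3-/-. Transcripts starting beside Peg3 held 0.0838 and 0.193 of them, and those starting farther downstream 0.163 and 0.558. The share of all tested genes without overlap was not counted in any comparison, so lack of overlap is descriptive only.

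In EpiLC 2 of the 10 genes were called higher in Tet3-/- than in XX, where 5.46% of all genes were called in either direction. Snrpn was 1.52-fold higher (log2 fold change 0.57, SE 0.16, limma adjusted p 0.046) and Ndn 2.47-fold higher (0.74, SE 0.19, limma adjusted p 0.0313), both without overlap of libraries. Both calls were lost without mutant #3 (Snrpn 0.43, limma adjusted p 0.159, and Ndn 0.44, limma adjusted p 0.0677), without any 1 of the XX EpiLC libraries, and on unscaled TPM (limma adjusted p 0.855 and 0.371). The other 8 genes were not called, with log2 fold changes from -0.38 (Peg10) to 0.47 (Peg3). Among them Nnat (-0.22), Plagl1 (-0.31) and Impact (-0.09) were lower in Tet3-/-, also without overlap of libraries. Lack of overlap is thus descriptive only here too.

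Mutant #3 EpiLC stood apart from mutants #1 and #4 across all genes, with a root mean square distance of 0.602 and 0.633 to them beside 0.348 between those 2. It had the highest level of the mutant EpiLC libraries in 7 of the 10 genes, and in 4 of them it exceeded the next mutant over 1.5-fold: Peg10 (4.47-fold), Ndn (2.22-fold), Peg3 (1.67-fold) and Mest (1.59-fold). Sgce and Nnat were lowest in it. The same library had a summed level of mesendoderm markers of 102 beside 4.15 and 5.04 in the other mutants. The primitive streak gene T was at up to 70.8. Its summed level of trophoblast markers was 19.9 beside 4.64 and 5.64. Eomes is in both lists, and the trophoblast sum was 16.4 to 17.9 in XX mESC and 14.8 to 18.7 in Tet3-/- mESC. The part of these markers in the values of the 10 genes was not tested. Without mutant #3, Peg10 was lower in Tet3-/- than in XX EpiLC (log2 fold change -1.11, limma adjusted p 0.0324), with mutants #1 and #4 at 32 and 34.4 and XX at 67.5 to 78.6.

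**Figure D4:**
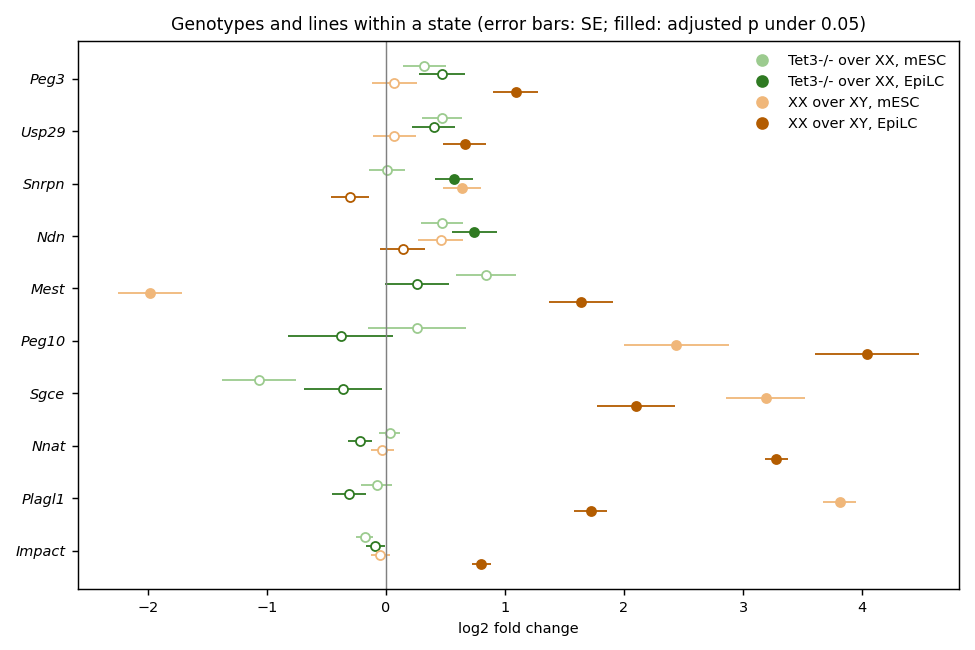
Log2 fold changes of Tet3-/- over XX and of XX over XY within mESC and within EpiLC (horizontal axis), with bars of 1 SE and filled points for an adjusted p under 0.05. The Tet3-/- values range from -1.07 to 0.84, and the XX over XY values range from -1.98 (Mest in mESC) to 4.04 (Peg10 in EpiLC).

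The XX and XY lines differed more. In mESC 5 of the 10 genes were called (4 higher and 1 lower in XX), where 31.3% of all genes were called, and in EpiLC 8 were called, all higher in XX, where 33.8% were called. The median log2 fold change of the 10 genes was 0.27 in mESC and 1.36 in EpiLC, beside 0.00 over all genes in each. Peg10, Sgce and Plagl1 were higher in XX in both states. Deposited TPM was under the filter's minimum of 1 in every XY mESC library for Peg10 and Sgce, and in every XY EpiLC library for Plagl1. In XY mESC, Plagl1 reached it in library 3 alone (1.29). These genes thus passed the filter mostly through LF2 libraries, in which they were higher. In mESC the mean of Plagl1 was 29.9-fold higher (log2 fold change 3.81, SE 0.14, limma adjusted p 2.1e-11), that of Sgce 28.7-fold (3.19, SE 0.33; 52-fold without XY mESC library 2) and that of Peg10 11.5-fold (2.44, SE 0.44). In EpiLC the means were 17.9-fold (Plagl1), 4.99-fold (Sgce) and 20.9-fold (Peg10) higher. Without XY EpiLC library 1, at 0.348 the highest of 3 low values, the Plagl1 fold was 46.8.

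Mest changed sides, from 5.19-fold lower in XX mESC (log2 fold change -1.98, SE 0.27, limma adjusted p 3.6e-05) to 3.43-fold higher in XX EpiLC (1.64, SE 0.27, limma adjusted p 0.000163). Nnat was not called in mESC (-0.03, limma adjusted p 0.838) and was higher in XX EpiLC (3.28, SE 0.10, limma adjusted p 7.28e-13). Peg3 (2.16-fold), Usp29 (1.89-fold) and Impact (1.75-fold) were likewise called in EpiLC and not in mESC, and Snrpn was called in mESC (0.64, limma adjusted p 0.00574) and not in EpiLC (-0.30, limma adjusted p 0.156).

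On unscaled TPM, 5 genes were called between XX and XY EpiLC. Peg3 (0.37), Usp29 (0.13), Mest (0.98) and Impact (0.07) lost their call there, and Snrpn became lower in XX (-1.03, limma adjusted p 0.0236). The Usp29 call was lost as well with a pseudocount of 0.1 (limma adjusted p 0.0634). Snrpn also lost its call in mESC (0.38, limma adjusted p 0.507). Peg10, Sgce, Nnat and Plagl1 kept their calls in EpiLC with log2 fold changes of 3.42, 1.46, 2.83 and 1.58.

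The differences between transitions were tested directly. None of the 10 genes was called for Tet3-/- minus XX by limma, where 0.661% of all genes were called and 1646 had an unadjusted p under 0.05. The values ranged from -0.64 (Peg10, SE 0.60) to 0.71 (Sgce, SE 0.45), and Snrpn had the smallest adjusted p (0.56, SE 0.22, limma adjusted p 0.325). For XX minus XY, 6 of the 10 were called (4 higher and 2 lower), where 23.7% of all genes were called (10.9% higher and 12.8% lower). Mest (3.62, SE 0.38, limma adjusted p 5.09e-06), Nnat (3.32, SE 0.14), Peg3 (1.01, SE 0.27) and Impact (0.85, SE 0.11) rose more in XX, Snrpn (-0.95, SE 0.23) rose more in XY, and Plagl1 (-2.10, SE 0.19) fell more in XX. On unscaled TPM the calls of Peg3 (0.48), Snrpn (-1.41) and Impact (0.40) were lost (limma adjusted p 0.565, 0.0596 and 0.556), and Sgce, at -1.09 and not called as reported (limma adjusted p 0.102), was called (-1.48, limma adjusted p 0.0126). Sgce was called as well with a pseudocount of 0.1 (-2.35), with the replicate number as a block, in a fit of only these groups and without XX mESC library 2 (-1.44). Each of these shares its mESC or EpiLC libraries with the comparisons above and is not independent of them. With 0.1 in place of 1 added before the logarithm, the Plagl1 difference was -1.05 and no longer called (limma adjusted p 0.0942).

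Other paternally expressed imprinted genes moved in both directions. Of 23 listed, 14 were tested, and 6 rose and 4 fell in the XX transition, 6 and 4 in XY, and 5 and 4 in Tet3-/-, with medians of 0.31, 0.14 and 0.26. Zdbf2, a zinc finger gene, rose in all 3 (2.04, 1.25 and 2.01 in XX, XY and Tet3-/-), as did Igf2, a growth factor gene (1.37, 1.22 and 0.87), which stayed at a mean of 2.75 or less. Slc38a4, an amino acid transporter gene, fell in all 3 (-3.21, -1.39 and -2.09), from a mean of 49.5 in XX mESC to 3.46 in XX EpiLC. None of the 14 was called between Tet3-/- and XX in either state. Between XX and XY, 4 were higher and 1 lower in mESC and 3 higher in EpiLC. Sfmbt2, a Polycomb gene, was higher in XX mESC (log2 fold change 2.12) and equalled XY in EpiLC (mean levels of 18 and 18.3).

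Genes beside the 10, maternally expressed or not imprinted, served as a second list. Of 26 listed, 18 were tested, and 4 rose and 6 fell in XX, 9 and 5 in XY, and 6 and 6 in Tet3-/-, with medians of 0.09, 0.43 and 0.16. On scaled values in EpiLC, 0 were higher and 8 lower in XX than in XY, where all 8 called genes of the 10 were higher in XX. Calcr (-1.29), Hivep2 (-1.25) and Atp10a (-0.68) were among the 8. Between Tet3-/- and XX, 1 was called, Osbpl1a beside Impact, which was lower in Tet3-/- EpiLC (-0.56, limma adjusted p 0.015).

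The closest patterns over the 6 group means were found for each of the 10 genes, as the root mean square distance of centred log2 levels, and those of 6 are named. Closest to Peg3 was Prss23 (0.17, with a range of 4.68 for Peg3), then Igsf9 (0.25). Closest to Snrpn were Hecw2 (0.08) and Gpx8 (0.12), to Mest Nefl (0.25) and Tmsb4x (0.30), and to Sgce Id2 (0.24) and Dusp9 (0.27). Closest to Plagl1 were 8030474K03Rik (0.28) and Gm4779 (0.30), and to Peg10 Hspb2 (0.46) and Sfn (0.51), the widest distances of these. No one of the 10 genes was allowed as a neighbour, and 1 of the 12 neighbours named, Prss23, lies on the chromosome of its gene. The closest neighbour of Impact (0.05), not named here, also lies on the chromosome of its gene. Tmsb4x, Dusp9, 8030474K03Rik and Gm4779 lie on the X chromosome, and the part of the sex chromosomes in these patterns was not tested.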

How the data were processed

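Strand-specific libraries of total RNA without ribosomal RNA were made from 200 ng of RNA with an RNA integrity number of at least 9, per the labels' protocols. The authors deposited TPM for 140948 transcripts in 19 libraries, and each column sums to 1e+06. The submitters' processing notes name FastQC 0.11.7, Trimmomatic 0.35, Salmon 1.1.0 and GRCm38, and other settings are not given in the sources used here.

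TPM was summed per gene with GENCODE M21 (139357 transcripts matched with version, 495 without, and 1096 unmatched ones with 0.0454% to 0.215% of TPM left out). It was scaled by median-of-ratios factors and fitted as log2(scaled TPM + 1) with limma 3.58.1 in R 4.3.3 (lmFit, contrasts.fit, eBayes with trend) over all 19 libraries in 6 groups, with 9 contrasts. Within a contrast, p-values over 14972 genes were given Benjamini-Hochberg adjustment. Tables were made in Python 3.11.15 with pandas 2.3.3. Nothing in the labels says that libraries came from separate cultures, so p-values measure the spread between these libraries. No pair of libraries of a group was identical.

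The members and gene lists were chosen with earlier results of these data known, and the lists are given as counts without tests. The text names the 10 genes, the genes of the lists, transcripts with at least 10% of a gene in a group, Tet3, and the 2 closest patterns of 6 genes. In data simulated for the XX transition (200 of 14972 genes changed), 78% of changes of 1 log2 unit and 94.5% of changes of 2 were recovered. For Tet3-/- against XX in EpiLC these were 72.5% and 93.5%, and for the difference between the Tet3-/- and XX transitions 42.5% and 87%. Far fewer genes were changed in the simulation than the 50.4% called in the XX transition, so recovery in that transition may differ. Alternatives were unscaled TPM, rescaling over nuclear protein-coding genes, quantile normalization, omission of the filter, a minimum TPM of 5, a pseudocount of 0.1, fits restricted to the groups at hand, eBayes with no trend, a replicate block, a minimum fold change, and each library left out in turn.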

Additional observations from a re-analysis of the deposited data

Results flagged for a closer look

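In 6 genes the XX transition differed from the XY transition past limma's threshold. On the log2(scaled TPM + 1) scale it was 3.62 in Mest (mean levels 2.67 to 23.8 in XX and 13.8 to 6.94 in XY), 3.32 in Nnat (0.0446 to 19.5 and 0.0729 to 1.1), 1.01 in Peg3 (2.56 to 61.8 and 2.41 to 28.6) and 0.85 in Impact (52.7 to 83.9 and 54.8 to 47.8). It was -0.95 in Snrpn (25.9 to 45.8 and 16 to 56.8) and -2.10 in Plagl1 (24.7 to 2.78 and 0.824 to 0.155). On unscaled TPM the calls of Peg3, Snrpn and Impact were lost (limma adjusted p 0.565, 0.0596 and 0.556). With a pseudocount of 0.1 the call of Plagl1 was lost (-1.05, limma adjusted p 0.0942). Mest had opposite directions in the lines, up in XX and down in XY. Its fall in XY was not called on unscaled TPM (-0.25, limma adjusted p 0.638). Sex chromosomes and line cannot be told apart in these values.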

How the results depend on the processing

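Of 47 called values of single genes, 0 changed sign under an alternative and 16 lost their call under at least 1. Of 1482 values of single genes under alternatives, 1386 kept their direction and side of the threshold, 45 lost a call, 23 gained one and 28 changed sign, each of a result that was not called, and the cause was not tested. With a minimum absolute log2 fold change of 1, 5 genes were called in the XY transition and 0 for Tet3-/- against XX in EpiLC. That last count, 2 as reported, was also 0 on unscaled TPM, with rescaling over protein-coding genes, without a filter and in a fit of only these groups, and 1 with a pseudocount of 0.1 or a TPM of at least 5, where fewer genes are tested. It ranged from 0 to 2 with 1 library left out. For Tet3-/- against XX in mESC the count ranged from 0 to 2 with 1 library left out. Unscaled TPM gave 5 calls between XX and XY EpiLC, beside 7074 over all 14972 genes.

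Changes of sign were as follows. On unscaled TPM, Ndn was at 0.25 and Impact at 0.48 in the XY transition, Plagl1 at 0.18 and Impact at 0.09 for Tet3-/- against XX in mESC, Peg3 at -0.12 for XX against XY in mESC, Ndn at -0.24 for XX against XY in EpiLC, and Peg3 at -0.15 and Impact at -0.29 for Tet3-/- minus XX. With rescaling over protein-coding genes, Ndn was at 0.06 and Impact at 0.13 in the XY transition, and Peg3 at -0.07 and Impact at -0.15 for Tet3-/- minus XX. With quantile normalization, Impact was at 0.07 in the XY transition, Peg3 at -0.01 for XX against XY in mESC, and Impact at -0.06 for Tet3-/- minus XX.

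With 1 library left out, uncalled values that changed sign ranged as follows. In the Tet3-/- transition Ndn ranged from -0.45 to 0.03. For Tet3-/- against XX, Snrpn in mESC ranged from -0.10 to 0.18, Plagl1 in mESC from -0.18 to 0.02, Mest in EpiLC from -0.01 to 0.46 and Peg10 in EpiLC from -1.11 to 0.01. For XX against XY in mESC, Peg3 ranged from -0.05 to 0.16 and Nnat from -0.08 to 0.05. For Tet3-/- minus XX, Peg3 ranged from -0.14 to 0.35, Usp29 from -0.28 to 0.13 and Ndn from -0.03 to 0.45.

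Deviations of same-numbered mESC and EpiLC libraries correlated over 0.1 in 4 of 9 pairs (r of 0.04, -0.05 and 0.06 in XX, 0.21, -0.03 and 0.27 in XY, 0.22, 0.22 and -0.09 in Tet3-/-). Between different numbers r was -0.09 to 0.04 in XX, -0.28 to 0.09 in XY and -0.27 to 0.19 in Tet3-/-. These values do not settle whether the numbers are pairs, and the main fit did not pair them. The labels do not say whether a mutant number is 1 clone in both states. With the replicate number as a block, 1 gene was called for Tet3-/- against XX in EpiLC (Ndn lost its call, 0.81, limma adjusted p 0.0547), 9 (XX), 7 (XY) and 9 (Tet3-/-) in the transitions, 5 and 8 between XX and XY in the 2 states, and 0 and 7 for the differences between transitions.

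Over all genes, the count called for Tet3-/- against XX was 476 in mESC and 818 in EpiLC. In mESC it was 90 unscaled, 179 with rescaling over protein-coding genes, 8 in a fit of only these groups, and 190 to 1593 with 1 library left out. In EpiLC it was 161 unscaled, 404 in a fit of only these groups, and 366 to 956 with 1 library left out. For Tet3-/- minus XX it was 99 as reported, and 26 unscaled, 62 with a pseudocount of 0.1, 51 with a TPM of at least 5, 50 in a fit of only these groups, 14 with the block, and 53 to 361 with 1 library left out. The XX transition had 7541 calls, 4689 unscaled and 4999 with a TPM of at least 5, and XX minus XY had 3547 and, with a TPM of at least 5, 2186. For XX against XY, mESC had 4683 calls, 2121 unscaled and 2326 in a fit of only these groups. EpiLC had 5066 calls, 7074 unscaled and 8646 in such a fit. Depth is unknown in TPM, so low levels such as those of Nnat and Usp29 in mESC carry an unknown counting error.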

Other observations

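Genes known to keep or remove imprinting marks changed between the states as well. Of 13 listed, 13 were tested, and 4 rose and 7 fell in the XX transition, 5 and 6 in XY, and 3 and 7 in Tet3-/- (limma). Zfp57 fell in all 3 (-0.55, -2.42 and -1.09 on the log2 scale in XX, XY and Tet3-/-), and its mean level in EpiLC was 69.3 in XX, 38.8 in Tet3-/- and 23.3 in XY. Trim28, the corepressor that ZFP57 recruits, fell in all 3 (-0.91, -0.51 and -0.82), and Dppa3, an oocyte factor that protects methylation, fell by 4.16, 4.71 and 4.80. The de novo methyltransferase genes Dnmt3a (1.65, 2.05 and 2.30) and Dnmt3b (2.02, 3.08 and 2.37) rose in all 3.

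Tet1, which encodes another 5-methylcytosine dioxygenase, had a mean level of 28.8 in XX and 0.482 in XY mESC (log2 fold change 4.32, limma adjusted p 9.16e-10). It fell in the XX (-0.71) and Tet3-/- (-1.45) transitions and rose in XY (1.75). Between Tet3-/- and XX, 0 of the 13 genes were called in mESC, and 2 were lower in Tet3-/- EpiLC, Zfp57 (-0.84, limma adjusted p 0.00291) and Tet1 (-0.80, limma adjusted p 0.0332). Neither of these calls was recomputed on unscaled TPM.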
